A study of Mus musculus with 6 samples.

Results

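The genes described here are made by the acinar cells of the exocrine pancreas: 24 digestive enzymes (colipase, a cofactor, included), 9 other proteins of the secretory granules and their surroundings, 4 transcription factors that define the acinar cell, and a receptor, 2 water channels and a chaperone found in it. They were taken from a named list of 41 genes, and all 41 were found by symbol among the 55536 genes of the count table. The tissue was not exocrine pancreas but whole pancreatic islets of C57B1/6J mice, in which acinar transcripts are a minority. The control mice carried intact Klf4 with the Gcg-iCre driver (genotype Klf4+/+;Gcg-iCre, 3 samples) and the knockout mice carried floxed Klf4 with the same driver (genotype Klf4fl/fl;Gcg-iCre, 3 samples), so the driver was shared by both groups. Gcg, the gene of glucagon, marks alpha cells, so the recombinase was directed to an endocrine cell type, while the RNA came from all cells of the islet preparation. The study was designed to examine how the transcription factor KLF4 regulates genes in alpha cells in vivo. Age and the number of mice behind each sample are not given in the labels, so p-values measure the spread between these samples, whatever its source.

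Each library held 101277200 to 110243918 counts over all genes. The 41 acinar genes together took 0.965%, 1.81% and 0.884% of all counts in control replicates 1, 2 and 3, and 2.47%, 3.14% and 2.29% in knockout replicates 1, 2 and 3. Exact Clopper-Pearson 95% intervals of these shares were at most 0.00337 percentage points to either side; they treat each count as independent and cover no other error. Since 84.5% to 87.1% of the counts from 1 to 9 in each library were even, counts were not all independent and these intervals are too narrow. No acinar gene was at 0 in any library. Klf4, the targeted gene, was at 3148, 2879 and 2015 normalized counts in the controls and at 2340, 2540 and 2277 in the knockouts, a log2 difference of -0.17 ± 0.15 (SE, n = 3 per group, DESeq2 adjusted p = 0.774), in RNA from all islet cells. Xist, expressed from the inactive X chromosome, ranged from 77938 to 108105 in the controls and from 12.4 to 30.2 in the knockouts, and 4 Y-linked genes were at 0 in every control and at 2881 to 6265 in the knockouts, so sex and genotype cannot be told apart in any comparison below. In bulk RNA, more acinar cells in a sample and more acinar RNA per cell cannot be told apart either.

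Acinar cells synthesise the enzymes of pancreatic juice, the proteases as inactive precursors, and store them in zymogen granules. Release follows when cholecystokinin or acetylcholine reaches the cell. Trypsin, once activated in the gut, activates the other protease precursors. The genes of these products are switched on together by PTF1, a complex of the bHLH protein PTF1A with an E-protein and RBPJL, while BHLHA15 (also called MIST1) builds up the secretory apparatus and NR5A2 acts beside PTF1 on the enzyme genes. In the pancreas, acinar cells surround the islets.

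The sequences upstream of these genes show the words that such factors can read. The bHLH proteins bind E-boxes, written CANNTG, and the word TTTCCC is the core read by RBPJ-type proteins. Promoters, taken from RefSeq on build GRCm38.p6, were found for 32 of the 41 genes, and the 250 bases before the start are printed for Ctrb1, Cel, Prss2, Cpa1 and Pnlip, 5 abundant enzyme genes, and for Bhlha15, which departed from the enzymes in the counts. Each runs 5′ to 3′ on the strand of the gene, and capitals mark every CANNTG and TTTCCC word, the latter also as its reverse complement GGGAAA.
Ctrb1, chr8:111691011-111691260, minus strand: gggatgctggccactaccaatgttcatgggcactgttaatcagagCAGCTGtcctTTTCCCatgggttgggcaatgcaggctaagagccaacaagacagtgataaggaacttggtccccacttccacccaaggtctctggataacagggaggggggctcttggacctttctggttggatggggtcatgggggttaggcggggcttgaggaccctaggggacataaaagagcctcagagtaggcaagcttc
Cel, chr2:28563404-28563653, minus strand: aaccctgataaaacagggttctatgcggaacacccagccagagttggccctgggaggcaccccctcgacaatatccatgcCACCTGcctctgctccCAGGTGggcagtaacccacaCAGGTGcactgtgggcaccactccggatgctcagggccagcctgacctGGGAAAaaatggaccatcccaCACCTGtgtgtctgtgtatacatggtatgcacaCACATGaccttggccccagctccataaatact
Prss2, chr6:41521526-41521775, plus strand: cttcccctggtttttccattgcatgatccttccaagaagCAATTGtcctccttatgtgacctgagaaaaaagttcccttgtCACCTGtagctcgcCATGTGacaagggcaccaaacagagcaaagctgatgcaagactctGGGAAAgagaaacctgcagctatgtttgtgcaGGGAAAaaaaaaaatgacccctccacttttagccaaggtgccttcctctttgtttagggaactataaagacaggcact
Cpa1, chr6:30638968-30639217, plus strand: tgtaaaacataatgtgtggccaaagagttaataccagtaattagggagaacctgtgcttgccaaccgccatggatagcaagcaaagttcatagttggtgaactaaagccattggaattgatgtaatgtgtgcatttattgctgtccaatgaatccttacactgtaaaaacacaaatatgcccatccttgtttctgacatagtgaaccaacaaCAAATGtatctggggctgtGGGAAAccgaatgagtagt
Pnlip, chr19:58670115-58670364, plus strand: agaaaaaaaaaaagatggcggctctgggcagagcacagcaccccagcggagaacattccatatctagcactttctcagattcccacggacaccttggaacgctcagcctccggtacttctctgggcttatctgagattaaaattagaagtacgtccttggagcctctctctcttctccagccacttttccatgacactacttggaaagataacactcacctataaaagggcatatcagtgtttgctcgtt
Bhlha15, chr5:144190036-144190285, plus strand: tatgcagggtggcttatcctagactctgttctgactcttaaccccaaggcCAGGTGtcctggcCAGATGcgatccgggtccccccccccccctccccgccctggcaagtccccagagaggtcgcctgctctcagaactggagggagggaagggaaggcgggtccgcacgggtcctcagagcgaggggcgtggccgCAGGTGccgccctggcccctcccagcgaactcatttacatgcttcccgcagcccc
Both words stood in the windows of Ctrb1, Cel, Prss2 and Cpa1, and neither stood in that of Pnlip, the gene with the highest mean count of the 41. The printed enzyme genes are examples and not a ranking by count. Of the genes not printed that had higher mean counts than Prss2, Cela1 and Cela2a had both words. Cpb1 and 2210010C04Rik had CANNTG and no TTTCCC. Bhlha15 had 3 CANNTG words and no TTTCCC word in its window, which says nothing of the factors that act on it. CANNTG was present in 27 of the 32 acinar promoters (84.4%) and in 66.2% of the 32851 promoters of the table. TTTCCC was present in 9 of the 32 (28.1%) and in 21.9% of all promoters. Of the E-boxes, CACCTG (or its reverse complement) stood in 19 of the 32 (59.4%) against 17.2% of all, and CAGCTG in 6 of the 32 (18.8%) against 13.0%; these 2 words were looked at after the values were seen, and a match is a description and not a binding site.

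The trypsinogen genes, which lie in a cluster on chromosome 6, are so alike that a short read can fit several of them. The first 75 coding bases of 6 genes, from the GENCODE M21 transcripts, show this, with capitals where a base differs from Prss2.
Prss2: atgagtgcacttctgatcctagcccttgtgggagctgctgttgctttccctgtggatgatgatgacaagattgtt
Try4: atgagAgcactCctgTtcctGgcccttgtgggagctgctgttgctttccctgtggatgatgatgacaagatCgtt
Try5: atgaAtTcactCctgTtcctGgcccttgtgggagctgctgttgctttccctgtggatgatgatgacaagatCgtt
Prss3: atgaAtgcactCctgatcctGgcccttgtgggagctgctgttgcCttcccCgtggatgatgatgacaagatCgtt
Prss1: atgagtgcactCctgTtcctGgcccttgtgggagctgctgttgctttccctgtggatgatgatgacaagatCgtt
Try10: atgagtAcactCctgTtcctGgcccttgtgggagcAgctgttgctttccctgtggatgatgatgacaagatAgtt
Over their 738 coding bases, Try4 and Try5 were 97.4% identical and Prss1 and Prss3 were 96.3% identical, while Prss2 was 88.6% to 91.7% identical to the other 5. How the authors' counting treated reads that fit more than 1 gene is not given in the sources used here, so the levels of such genes are uncertain. As a measure of this, the share of 50-base windows of each gene's transcripts that also occur in another gene's transcripts was computed; it was 66.1% for Prss3, 65.6% for Try4 and 47.6% for Try5, but 7.83% for Prss2 and 0 for the trypsinogen-family gene 2210010C04Rik.

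Most acinar transcripts had higher counts in the knockout libraries, by a factor that varied little from gene to gene. Over the 40 acinar genes whose normalized counts averaged 50 or more, the median log2 fold change of knockout against control was 1.03, a fold of 2.04, with quartiles at 0.94 and 1.17, whereas the median over all 15811 genes of that level was -0.01 with quartiles at -0.10 and 0.10. The log2 fold change was above 0 for 39 of the 40, against 48.1% of all genes. Aqp8, the remaining gene, had a mean of 36.1. The groups did not overlap, with all knockouts above all controls, for 31 of the 40 genes, against 9.42% of all genes, and none was lower throughout, against 8.54% of all genes. A log2 fold change of at least 1 was seen in 25 of the 40, against 1.22% of all genes. DESeq2 called 10 of the 41 at an adjusted p under 0.05, all higher (Ctrc, Try5, Pnliprp2, Gp2, Klk1, Tff2, Ptf1a, Cckar, Aqp12 and Erp27), and none lower, while 2.19% of all tested genes were called, 1.53% as higher. The edgeR quasi-likelihood test called none of the 41, with 0.115% of all genes called; at an unadjusted p under 0.05, 35 were higher by edgeR, against 5.71% of all genes, and 36 by DESeq2, against 5.2%. The number of DESeq2 calls depended most on control replicate 2: without that library 35 of the 41 passed, and without control replicate 1 or 3, or knockout replicate 1, 2 or 3, 4, 8, 5, 3 and 4 passed.

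**Figure D1:**
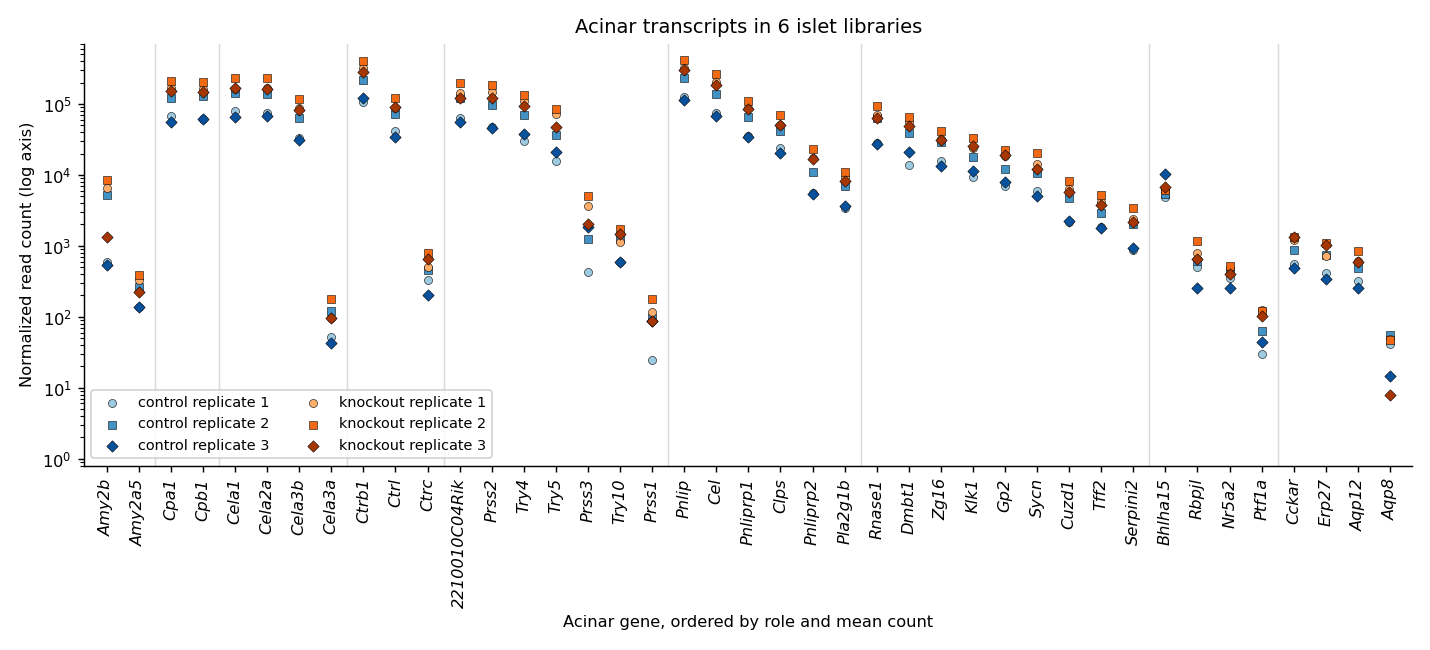
Normalized read count (log axis) of the 41 acinar genes in the 6 islet libraries, ordered by role and mean count; blue points are controls and orange points knockouts, with 1 symbol per replicate number. Control replicate 2 lies above the other controls and knockout replicate 2 above the other knockouts for nearly every gene, and the exceptions include Bhlha15, Prss3, Ptf1a and Aqp8.

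The chymotrypsins cut proteins inside the chain, and 1 of the 3 passed the test. Ctrb1, chymotrypsinogen B (chr8:111686519-111691010, minus strand), was at 107244, 220280 and 122586 normalized counts in the controls and at 320885, 399506 and 278995 in the knockouts. It had the highest level per length of all 41, a mean of 275151 normalized counts per kb of exon. Every knockout library stood above every control, and the log2 difference was 1.15 ± 0.37 (SE, n = 3 per group, DESeq2 adjusted p = 0.074), which did not pass. Ctrl, a chymotrypsin-like protease, was at 41249, 71220 and 34665 in the controls and at 86343, 119782 and 91840 in the knockouts. Again the groups did not overlap, with a log2 fold change of 1.02 ± 0.36 (SE). Ctrc, chymotrypsin C, which degrades or helps to activate trypsinogen, was far lower, at 329, 454 and 204 in the controls and at 510, 789 and 663 in the knockouts. The log2 difference of 0.99 ± 0.26 (SE, DESeq2 adjusted p = 0.011) passed, although it was no larger than those of Ctrb1 and Ctrl; edgeR gave an adjusted p of 0.315. Exons of Ctrc (chr4:141814962-141846359, minus strand) overlap those of Cela2a on the same strand and of Casp9 on the other, and 17.7% of its windows are shared, so its count is uncertain.

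The elastases, which cut proteins at small side chains, had log2 fold changes from 0.78 to 1.17. Cela1 (chr15:100674421-100687921, minus strand) was at 78711, 141911 and 65986 in the controls and at 164940, 232344 and 167434 in the knockouts. Cela2a (chr4:141814962-141826160, minus strand) was at 75525, 138590 and 67245 in the controls and at 168550, 229316 and 164898 in the knockouts. In both, control replicate 2 lay nearer to the lowest knockout than to the other controls, with log2 fold changes of 0.98 ± 0.39 and 1.00 ± 0.38 (SE), and neither passed the test. Cela3a, at 52.6, 119 and 42.4 in the controls and 96.3, 177 and 95.8 in the knockouts, was the lowest of the elastases and its groups overlapped, at a log2 difference of 0.78 ± 0.43 (SE, DESeq2 adjusted p = 0.504); 34.2% of its windows are shared, first with Cela3b. The carboxypeptidases trim residues from the C-terminal end of peptides. Cpa1 (chr6:30639218-30645363, plus strand) was at 67561, 121079 and 56070 in the controls and at 165163, 212977 and 149832 in the knockouts, a mean of 81570 ± 34695 against 175991 ± 32936 (SD, n = 3). Cpb1 (chr3:20248264-20275733, minus strand) was at 62201, 127342 and 60861 in the controls and at 161063, 201945 and 149290 in the knockouts. In both the 3 knockouts stood above the 3 controls, and the log2 fold changes were 1.11 ± 0.39 and 1.03 ± 0.40 (SE), neither past the threshold.

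The trypsinogens spread more widely than the other enzymes, with log2 fold changes from 0.83 to 1.61 and a median of 1.26 over 7 genes. Prss2 (chr6:41521787-41525079, plus strand), the trypsinogen with the highest level per length, was at 46759, 95309 and 45593 in the controls and at 145994, 182233 and 122038 in the knockouts. The gene 2210010C04Rik (chr6:41030268-41035509, minus strand), with no shared window, was at 62554, 121968 and 56144 in the controls and at 140879, 197868 and 122738 in the knockouts. The lowest knockout was clear of control replicate 2 for Prss2 and barely above it for 2210010C04Rik, and the log2 fold changes were 1.26 ± 0.41 and 0.94 ± 0.43 (SE). Try5 (chr6:41311233-41316841, minus strand) was at 15922, 36530 and 21298 in the controls and at 73179, 85079 and 47887 in the knockouts. It passed at 1.48 ± 0.43 on the log2 scale (SE, DESeq2 adjusted p = 0.0311), and edgeR gave an adjusted p of 0.173. Prss3 (chr6:41373814-41377678, minus strand) was at 433, 1228 and 1837 in the controls and at 3611, 5029 and 2013 in the knockouts. With all 6 libraries it had the largest log2 fold change of the 41, 1.61 ± 0.66 (SE, DESeq2 adjusted p = 0.243); without control replicate 3 it was 2.10 and passed (DESeq2 adjusted p = 0.0414), and without control replicate 2 it was 1.64, below Amy2b at 3.26. Its order of libraries differed from that of Prss2, as control replicate 3 and not control replicate 2 was the highest control. Prss1, singled out after its values were seen, was at 24.8, 96.0 and 88.1 in the controls and at 118, 175 and 85.8 in the knockouts, so its groups overlapped.

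Of the amylases, which split starch, the count table held few reads compared with the proteases. Amy2a5 (chr3:113247178-113258837, minus strand) was at 136, 259 and 138 in the controls and at 334, 394 and 227 in the knockouts. Amy2b (chr3:113147656-113156727, minus strand), which GENCODE M21 annotates as an unprocessed pseudogene and RefSeq as protein-coding, was at 600, 5247 and 538 in the controls and at 6565, 8416 and 1346 in the knockouts. Control replicate 2 was 9.22 times the mean of the other 2 controls, and knockout replicate 3 fell below control replicate 2. Its log2 fold change of 1.35 had a 95% interval from -0.97 to 3.68 and did not pass (DESeq2 adjusted p = 0.776). Without control replicate 2 it was 3.26 and passed (DESeq2 adjusted p = 0.0245). For Amy2a5 53.5% and for Amy2b 40.2% of the windows are shared with transcripts of other genes, first Amy2a2, and how reads were divided among such genes is not known here.

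The lipases split dietary fat. Pnlip, pancreatic triglyceride lipase (chr19:58652498-58681788, plus strand), was at 123353, 230499 and 113635 in the controls and at 326213, 422922 and 298793 in the knockouts. Cel, the bile-salt-dependent lipase (chr2:28555795-28563403, minus strand), was at 73359, 138385 and 67979 in the controls and at 201712, 263785 and 185913 in the knockouts. Pnliprp2 (chr19:58759719-58777534, plus strand), a lipase-related protein that acts on galactolipids, was at 5632, 11027 and 5318 in the controls and at 17178, 22868 and 16730 in the knockouts. None of the 3 overlapped between groups, and their log2 fold changes were 1.16 ± 0.38, 1.22 ± 0.38 and 1.37 ± 0.39 (SE). Pnliprp2 passed in DESeq2 (adjusted p = 0.0303; edgeR adjusted p = 0.170), and Pnlip and Cel did not (0.0775 and 0.0609). Over all 6 lipases and colipase, the cofactor that holds lipase to fat droplets, the log2 fold changes ran from 0.98 to 1.37.

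**Figure D2:**
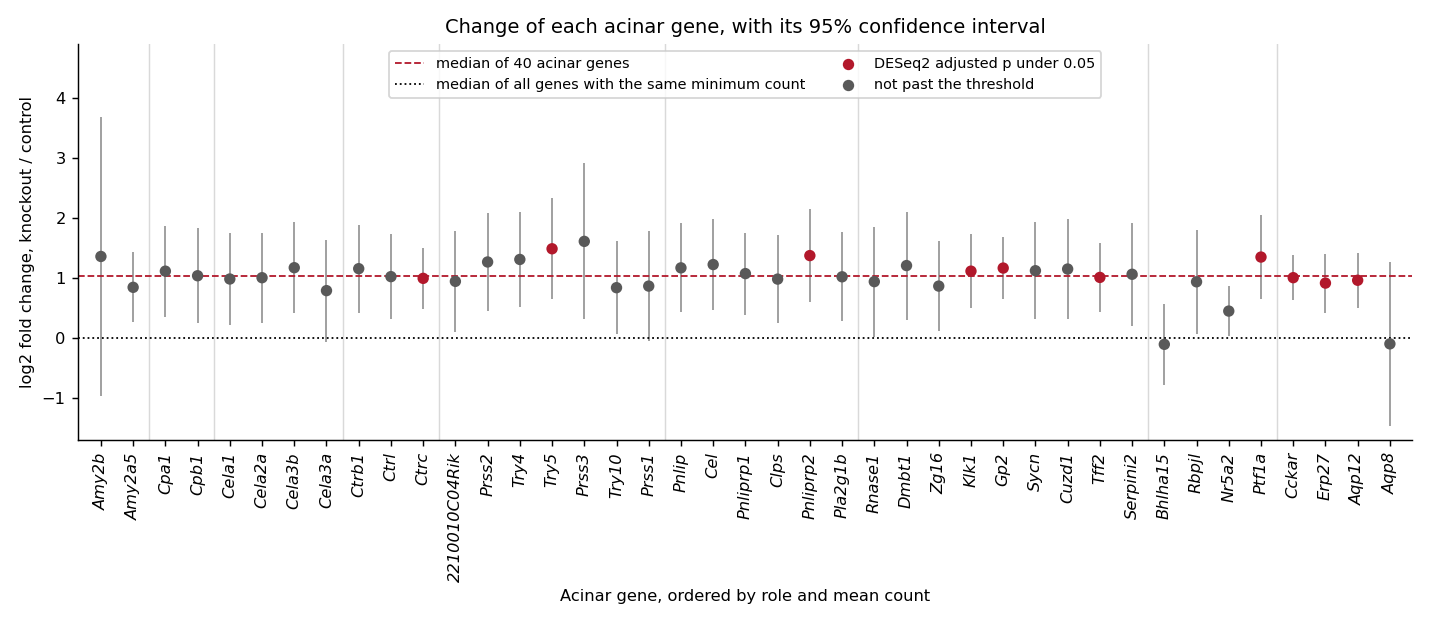
Log2 fold change of knockout against control for each of the 41 acinar genes (points) with its 95% interval (lines), ordered by role and mean count; red points passed in DESeq2. The intervals of 38 of the 40 genes with a mean of at least 50 hold the median of those genes, 1.03 (dashed line), and those of Bhlha15 and Nr5a2 do not. The median comes from the same genes and many intervals are wide, so this count is no test of a common factor.

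Other proteins of the granule and the juice had log2 fold changes from 0.86 to 1.20 over 9 genes, all above 0. DESeq2 called 3 of the 9 higher, Gp2, Klk1 and Tff2, against 1.53% of all genes tested. Gp2, the main membrane protein of the zymogen granule (chr7:119442537-119459285, minus strand), was at 6987, 12052 and 7905 in the controls and at 18527, 22538 and 19194 in the knockouts, and it had the lowest adjusted p of this group. Gp2 rose by 1.16 ± 0.27 on the log2 scale (SE, DESeq2 adjusted p = 0.00183), with 3 of 3 knockouts above all controls, and edgeR gave an adjusted p of 0.0848. Klk1, tissue kallikrein (chr7:44225360-44229618, plus strand), was at 9395, 17657 and 11306 in the controls and at 23936, 33128 and 25703 in the knockouts, and Tff2, a trefoil peptide (chr17:31141049-31144282, minus strand), was at 1835, 2935 and 1755 and at 4167, 5211 and 3718. Both passed, with log2 fold changes of 1.11 ± 0.32 and 1.01 ± 0.29 (SE) and DESeq2 adjusted p of 0.0287 and 0.0314. The edgeR adjusted p of Klk1 and of Tff2 was 0.172. Dmbt1, a scavenger-receptor glycoprotein, was at 13778, 39319 and 20917 in the controls and at 55951, 65126 and 49289 in the knockouts. Rnase1, pancreatic ribonuclease, was at 28062, 62908 and 26872 in the controls and at 69336, 93126 and 62781 in the knockouts, so that knockout replicate 3 fell just below control replicate 2. Neither Dmbt1 nor Rnase1 passed, with log2 fold changes of 1.20 ± 0.46 and 0.93 ± 0.47 (SE).

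Of 4 genes through which the acinar cell handles signals, water and protein, DESeq2 called 3 higher, against 1.53% of all genes tested. Cckar, the cholecystokinin receptor that triggers enzyme release (chr5:53697776-53707705, minus strand), was at 549, 883 and 490 in the controls and at 1216, 1322 and 1311 in the knockouts. The knockouts lay close together and above every control, with a mean of 1283 ± 58.1 against 641 ± 212 (SD, n = 3), and Cckar had the lowest DESeq2 adjusted p of the 41 genes (log2 fold change 1.00 ± 0.19 SE, adjusted p = 6.78e-05; edgeR 0.172). Aqp12, a water channel of acinar cells (chr1:93006334-93012269, plus strand), was at 317, 486 and 255 in the controls and at 603, 853 and 601 in the knockouts, a log2 difference of 0.96 ± 0.24 (SE, DESeq2 adjusted p = 0.00509). Erp27, an endoplasmic reticulum protein of the disulfide isomerase family (chr6:136907311-136922180, minus strand), was at 421, 747 and 339 in the controls and at 729, 1087 and 1018 in the knockouts. It passed (log2 fold change 0.91 ± 0.25 SE, DESeq2 adjusted p = 0.020) although knockout replicate 1 fell just below control replicate 2. The edgeR adjusted p was 0.273 for Aqp12 and 0.349 for Erp27. Aqp8 ranged from 14.9 to 55.7 in the controls and from 7.98 to 49.1 in the knockouts, and it did not pass.

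The 4 transcription factors had log2 fold changes from -0.11 to 1.34, and only Ptf1a passed the test. Ptf1a (chr2:19445663-19447501, plus strand), the bHLH subunit of PTF1, was at 29.8, 63.4 and 44.6 in the controls and at 127, 120 and 104 in the knockouts. Ptf1a rose by 1.34 ± 0.35 on the log2 scale (SE, DESeq2 adjusted p = 0.0122; edgeR 0.219), at the lowest level per length of the 40, 53.9 normalized counts per kb, and 35.4% of its windows are shared with the antisense gene Ptf1aos. Rbpjl (chr2:164403141-164415448, plus strand), its partner, was at 508, 615 and 250 in the controls and at 799, 1173 and 650 in the knockouts, which did not overlap, at a log2 difference of 0.93 ± 0.44 (SE, DESeq2 adjusted p = 0.375). Nr5a2 (chr1:136842571-136960448, minus strand) was at 347, 429 and 255 in the controls and at 480, 526 and 397 in the knockouts, with a log2 fold change of 0.44 and a 95% interval from 0.03 to 0.86. Its groups overlapped and the interval lay below the acinar median of 1.03. Bhlha15 (chr5:144190286-144194441, plus strand), MIST1, was at 4852, 5415 and 10359 in the controls and at 6337, 6065 and 6688 in the knockouts. The knockouts lay close together, 6363 ± 312 (SD, n = 3), within the wide range of the controls, 6875 ± 3030, where control replicate 3 was the highest of all libraries. The log2 fold change of Bhlha15 was -0.11 with a 95% interval from -0.79 to 0.57 (DESeq2 adjusted p = 0.963), and without control replicate 3 it was 0.31 (DESeq2 adjusted p = 0.00491). Per length Bhlha15 was at 1894 normalized counts per kb, above the other 3 factors, which lay between 53.9 and 116.

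**Figure D3:**
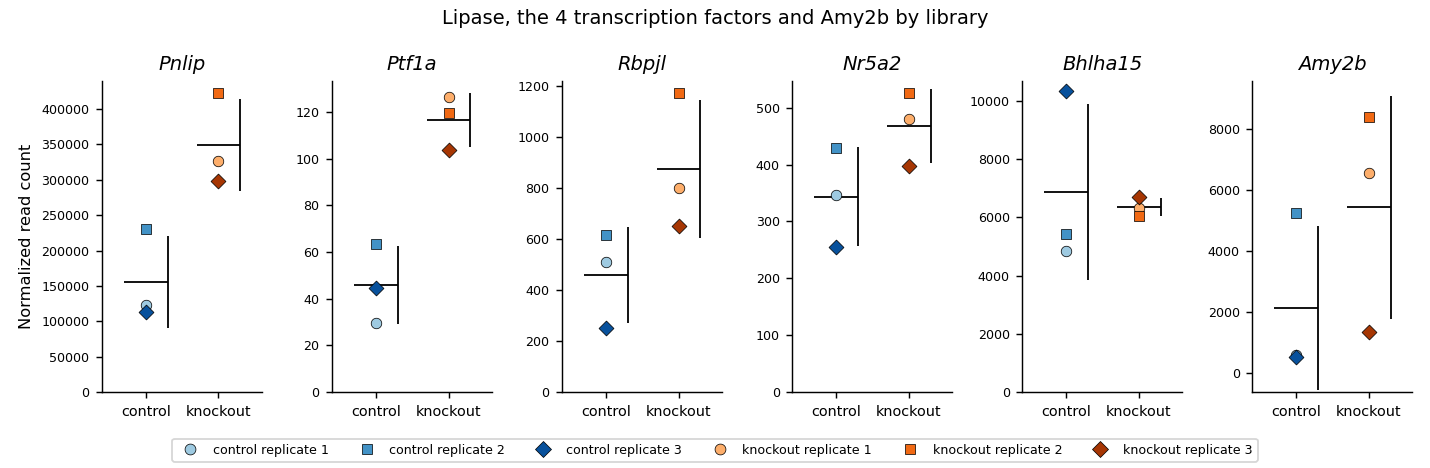
Normalized read counts by library (symbols) for Pnlip, the 4 transcription factors and Amy2b, each panel on its own linear axis, with the group mean (horizontal line) and SD (vertical line, n = 3). The groups do not overlap for Pnlip, Ptf1a and Rbpjl, but for Rbpjl only narrowly, with a control at 615 and a knockout at 650. Bhlha15 has its highest value, 10359, in control replicate 3, and Amy2b has a control at 5247 above a knockout at 1346.

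To see whether the genes moved together in each library, each count was set against that gene's mean in the controls and the median was taken over the 40 genes. The median was 0.773, 1.48 and 0.729 times the control mean in control replicates 1, 2 and 3, and 1.91, 2.50 and 1.80 times in knockout replicates 1, 2 and 3. Control replicate 2 thus lay closer to knockout replicates 1 and 3 than to the other controls, and no control reached a knockout. On the log2 scale the group means of these medians were -0.09 ± 0.57 and 1.03 ± 0.25 (SD, n = 3). The median of all genes, which the scaling of the libraries holds near 0, was between -0.01 and 0.01 on that scale. Around each library's median the interquartile range of the 40 genes was 0.132 to 0.275 on the log2 scale, compared with 0.159 to 0.238 for all genes, and 26 to 37 of the 40 lay within 0.25 of it. Knockout replicate 2 was the highest library for 38 of the 40 genes and control replicate 2 the highest control for 38, and knockout replicate 3 was above control replicate 2 for 34.

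**Figure D4:**
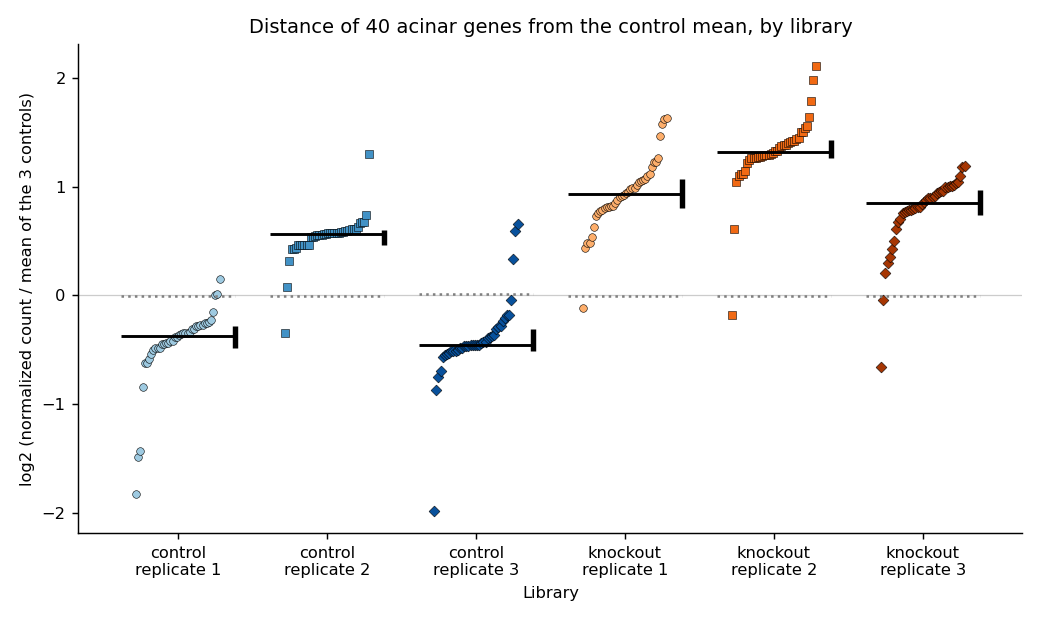
Log2 of normalized count over the mean of the 3 controls for 40 acinar genes (points, sorted) in each library, with their median (black line), interquartile range (thick bar) and the median of all genes (dotted line). The medians run from 0.729 times the control mean in control replicate 3 to 2.50 times in knockout replicate 2, and a few genes lie far from the line in control replicates 1 and 3.

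By role, the factor of each library varied little among the secreted products other than the amylases and trypsinogens. In knockout replicate 2 it was 2.51 times the control mean for the carboxypeptidases, 2.47 for the elastases, 2.44 for the chymotrypsins, 2.58 for the lipases and colipase and 2.59 for the other secreted proteins, while the trypsinogens were at 2.91 and the transcription factors at 1.98. In control replicate 2 the same roles, trypsinogens included, lay between 1.45 and 1.51, and the transcription factors were at 1.30. The 2 amylases stood apart, at 0.464, 1.90 and 0.443 times the control mean in control replicates 1, 2 and 3 and at 2.41, 2.96 and 0.898 times in knockout replicates 1, 2 and 3. The roles differed most in knockout replicate 3, where the other secreted products lay between 1.72 and 1.90 and the transcription factors were at 1.28. The last role, Cckar, Aqp12 and Erp27, was at 2.03 there, at 2.16 in knockout replicate 2 and at 1.38 in control replicate 2. Over the 24 enzymes and colipase the log2 fold changes ran from 0.78 to 1.61 with a median of 1.05, and all were above 0.

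The departures from the common factor were read against shared sequence, a split made after the values were seen. The distance of each gene from its library's median was taken in all 6 libraries and its SD computed. Among the 23 genes with no shared window, this SD ran from 0.0367 (Cpb1) to 0.265 on the log2 scale with a median of 0.100, and the log2 fold changes ran from 0.86 to 1.37. All 23 were highest in knockout replicate 2, and in all 23 control replicate 2 was the highest control. Among the 14 genes with at least 5% of windows shared, the SD ran from 0.0470 to 1.20 with a median of 0.231, and the log2 fold changes ran from 0.78 to 1.61. Amy2b, at 1.20, Prss3, at 0.842, and Prss1, at 0.634, had the largest SDs of these 14. The genes with shared windows also had lower counts, a median mean of 3072 normalized counts against 40730, and the part of each in the spread was not tested. The remaining 3, Bhlha15 (0.908), Nr5a2 (0.418) and Rbpjl (0.335), have under 5% of windows shared and are all transcription factors.

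**Figure D5:**
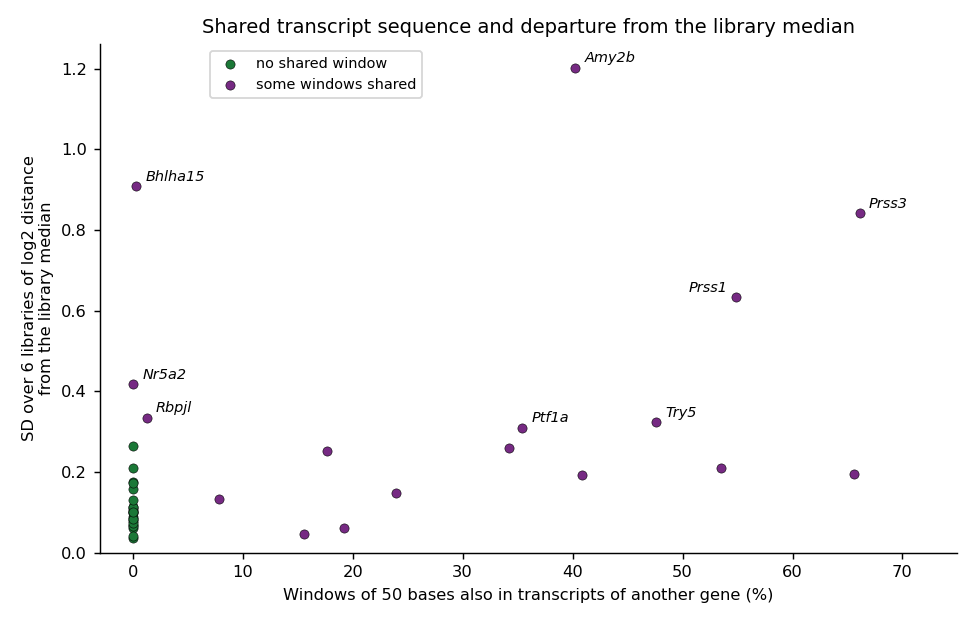
Share of 50-base windows also present in transcripts of another gene (horizontal axis, %) against the SD over 6 libraries of each gene's log2 distance from the library median (vertical axis) for 40 acinar genes. Genes with no shared window (green) lie at or below 0.265, while Amy2b, Prss3 and Prss1 lie at 0.634 to 1.20 and Bhlha15 lies at 0.908 with almost no shared window.

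Further acinar genes outside the 41, from a second list of 20 of which 19 were found and 18 tested, had a median log2 fold change of 0.70. DESeq2 called 2 higher, against 1.53% of all genes tested, and none lower, against 0.657%: Tmed6, a cargo protein of the early secretory path (log2 fold change 0.63 ± 0.16 SE, adjusted p = 0.00538), and Slc39a5, a zinc transporter (1.06 ± 0.29, adjusted p = 0.0167). edgeR called none, with 10 higher at an unadjusted p under 0.05, against 5.71% of all genes. Of the 18 with a mean of at least 50, 8 did not overlap and were higher, against 9.42% of all genes, and none was lower, against 8.54%. Among the most abundant were Reg1, a regenerating-gene protein (12326, 40389 and 19130 in the controls, 43344, 44118 and 47416 in the knockouts), and Sel1l, a component of endoplasmic reticulum quality control (20243, 17869 and 22342 in the controls, 23834, 24656 and 23080 in the knockouts). Reg1 had a log2 fold change of 0.91 and Sel1l of 0.24, and neither passed. Of 16 genes of the secretagogue response and of granule release, many of them expressed in islet cells too, DESeq2 called none, against 2.19% of all genes tested, and edgeR called none, against 0.115%. At an unadjusted p under 0.05, DESeq2 had 2 higher, against 5.2% of all genes, and 1 lower, against 3.83%, and edgeR had 2 higher, against 5.71%. The median log2 fold change of the 14 with a mean of at least 50 was 0.003, with 7 above 0; of the 14, 4 did not overlap and were higher, against 9.42% of all genes, and 1 was lower, against 8.54%.

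Levels of other cell types are given beside the acinar genes, since they also differed between libraries; calls are by DESeq2, which called 1.53% of all genes higher and 0.657% lower. The summed level of 9 mesenchymal markers was 83838 to 96859 normalized counts in the controls and 125620 to 131116 in the knockouts, with 5 of 9 called higher; edgeR called 3 of the 9 higher and no marker of the other lists given here. That of 12 duct markers was 52665 to 59235 and 60142 to 65369, with Krt7 and Muc1 called higher. That of 9 alpha-cell markers was 4119140 to 5926160 and 3053170 to 3752390, with 4 of 9 called lower, Gcg among them. That of 10 beta-cell markers, 18750000 to 21847100 and 20955600 to 21292200, overlapped, with Nkx6-1 called lower (log2 fold change -0.23 ± 0.07 SE, DESeq2 adjusted p = 0.0314) and 3 of the 10 lower at an unadjusted p under 0.05, against 3.83% of all genes. Overlapping sums were also found for the delta-cell, endothelial, Schwann cell and immediate early lists, in the last of which Fosb was called higher. The sum of 8 lymphocyte markers was 1670 to 1790 in the controls and 1417 to 1465 in the knockouts. Most of it was Cd79a, at 1536 to 1657 and at 1327 to 1393. None of the 2 tested was called, and 4 of the 8 were lower at an unadjusted p under 0.05. The sum of 6 adipocyte markers was 1504 to 1893 and 2119 to 2636. Nearly all of it was Fabp4, at 1490 to 1886 and at 2114 to 2617, the only one tested, which was called higher. Every other adipocyte marker was at 16.5 or less in each library, so these sums describe Fabp4 and not adipocytes as a whole. Of 8 macrophage markers 3 were called higher, with sums of 11879 to 12983 and 12313 to 14378. Control replicate 2, with the highest acinar level of the controls, also had the highest alpha-cell and mesenchymal sums among them. That of 13 hepatocyte markers was 3430 to 3929 in the controls and 105950, 8146 and 3942 in knockout replicates 1, 2 and 3, with 4 of 7 tested called higher, and 3 of the 13 were at 0 in some library. Of the lymphocyte markers 5 and of the adipocyte markers 4 were at 0 in some library, and no marker of the other lists was. The part of cell composition in the acinar difference was not tested.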

How the data were processed

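Poly(A) RNA of whole islets was measured in 3 control and 3 knockout samples, grouped by the titles and genotypes of the labels. The deposited table holds whole-number read counts per gene, not normalized; the submitters' processing notes name FastQC, STAR, featureCounts, DESeq2 and build mm10, with no versions. The strand setting, the handling of reads that fit several genes and the annotation release are not given in the sources used here, though all 55536 genes match GENCODE M21 identifiers and symbols. Of the counts from 1 to 9, 84.5% to 87.1% were even in each library, against 53.1% to 54.7% of the counts from 1000 to 100000, which limits the precision of low counts.

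Counts were fitted across the whole table with DESeq2 1.42.0 in R 4.3.3, the test named in the series design, with no batch term, on genes with at least 10 counts in all; log2 fold changes are not shrunken, and p-values were adjusted by Benjamini-Hochberg over all genes tested, with a threshold of 0.05. Normalized counts are counts divided by DESeq2 size factors. As a second tool, edgeR 4.0.16 was run (quasi-likelihood, TMM factors), and other scalings, filters, a replicate block and leaving out each library were also tried. Both fits were tested on simulated data. Levels per kb used the exon length of GENCODE M21. Shared windows were runs of 50 bases found in transcripts of another gene. The acinar genes and all lists were chosen with earlier results of these data known. Per-library values are given for the 2 most abundant genes of each role, all transcription factors, all called genes and the 3 highest and 3 lowest log2 fold changes. Over 15811 genes, same-numbered samples did not deviate together, so the numbers were not used as pairs. The medians of the acinar genes, however, were highest in replicate 2 and lowest in replicate 3 of both groups. Values of 1 further acinar gene are not reported here.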

Additional observations from a re-analysis of the deposited data

How the results depend on the processing

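The count of acinar genes past the threshold, 10 of 41, was 0 with edgeR (35 at an unadjusted p under 0.05) and ranged from 3 to 35 when 1 library was left out, the highest without control replicate 2; scalings and filters in DESeq2 gave 9 to 11. The count of further acinar genes, 2, became 0 with edgeR (10 unadjusted), 4 with at least 10 counts in at least 3 libraries, and 0 to 8 when 1 library was left out. A block for the replicate number gave 33 of 40 acinar genes tested, 9 of them among the 10, and 5 further acinar genes. The deviations of same-numbered samples had correlations of -0.05, -0.06 and 0.01 over 15811 genes. Of the 6 libraries, 1 correlated best with its own number. The medians of the acinar genes, in contrast, were highest in replicate 2 and lowest in replicate 3 of both groups. The median log2 fold change of the acinar genes, 1.03, ran from 0.87 to 1.43 when 1 library was left out, the highest without control replicate 2. Bhlha15 ran from -0.31 without control replicate 1 to 0.31 without control replicate 3, the reverse of its sign in all 6 libraries (-0.11). Over 435 alternative values of 29 single genes, 363 changed neither direction nor call, 41 lost the call, 30 gained it and 1 changed sign. Of the alternatives to the library medians, none moved a group by more than its SD. In fits that leave 2 libraries in a group, the spread is estimated from fewer samples. Every control and no knockout had Xist at a high level, so sex and genotype cannot be told apart.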

Other observations

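Gatm and Rab3d, from the list of further acinar genes, had their highest value in control replicate 3, the library in which Bhlha15 was highest. With Gm5771 they were singled out after the values were seen. Gatm and Rab3d did not follow the library medians of the acinar genes, which were highest in knockout replicate 2. Which cells of the islet preparation supplied their RNA was not tested. Gatm, the first enzyme of creatine synthesis, was at 5492, 5954 and 10246 normalized counts in the controls and at 5436, 6746 and 4652 in the knockouts (log2 fold change -0.37 ± 0.34 SE, n = 3 per group, DESeq2 adjusted p = 0.799). Rab3d, a small GTPase of the zymogen granule, was at 16981, 15866 and 23182 in the controls and at 18798, 19403 and 18871 in the knockouts (0.03 ± 0.12, adjusted p = 0.979). Gm5771, a trypsinogen-like gene, was at 83.3, 425 and 632 in the controls and at 1184, 1632 and 406 in the knockouts, so that control replicate 3 was the highest control, as it was for Prss3.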
